A study of Homo sapiens with 6 samples.

Results

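The secreted factors described here are 5 genes, the chemokines CXCL2 and CCL20, the macrophage growth factor CSF1, the cytokine LIF and the cytokine subunit EBI3. They were taken by name, each from the single row that carries its symbol, out of 2778 features in a table of raw counts. RNA was measured in A375 cells, an established human melanoma line, with 3 libraries labelled wildtype (WT) and 3 labelled as overexpressing CYGB, the gene of the haem protein cytoglobin (CYGB-OE). All cells were untreated and grown in the same medium. No label names an empty-vector control, the vector, whether the CYGB-OE cells are 1 clone, or separate cultures for the libraries of a group, so the p-values reflect how far these libraries scatter, and that scatter may be technical.

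Chemokines are small secreted proteins that attract leukocytes through G-protein-coupled receptors. CXCL2 acts on neutrophils through CXCR2, and CCL20 acts through CCR6 on lymphocytes and dendritic cells. CSF1 keeps macrophages and their precursors alive through the receptor kinase CSF1R. LIF belongs to the IL-6 family and signals through LIFR and the shared chain gp130 to JAK kinases and STAT3. EBI3 has the fold of a soluble receptor and is secreted in pairs with a second subunit, p28 in IL-27 or p35 in IL-35. Tumour cells, melanoma among them, are known to secrete factors of these families, and several of the genes are textbook targets of the transcription factor NF-kB.

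CYGB, the check of the labels, had 33 to 47 counts in the WT libraries and 20740 to 26267 in the CYGB-OE libraries. The table holds only features that differed about 2-fold between these same libraries, with no feature between log2 ratios of -0.995 and 0.995, so a call for a listed gene is not independent evidence of a difference. Column totals ran from 1533260 to 2801576 counts and are not library depths. Values below are normalized counts, which are counts divided by library factors that place the middle of that empty band at a log2 ratio of 0. CYGB-OE replicate 1 stood apart: the median absolute log2 difference over tested features was 0.455 from replicate 2 and 0.461 from replicate 3, while replicates 2 and 3 differed from each other by 0.211 and pairs of WT libraries by 0.175 to 0.185. Results are therefore given with and without it. Of 10 markers fixed for melanocytes and melanoma, 4 were in the table. Of these, S100A1 had 4191 to 4639 normalized counts in WT and 1923 to 2200 in CYGB-OE, and EDNRB 1697 to 1860 and 582 to 698. The enzymes of melanin synthesis were rare in both groups, TYRP1 with 13.4 to 34.0 in WT and 0.909 to 8.53 in CYGB-OE, and DCT with 2.20 to 15.9 in WT and 0 in each CYGB-OE library. None of 8 leukocyte markers and 1 of 8 macrophage markers, LYZ, were in the table, and the markers outside it were not analysed here.

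The promoters of CXCL2, CCL20 and EBI3 are shown because only these 3 of the 5 genes had entries in the RefSeq promoter table (build GRCh38.p14). CSF1 and LIF, with smaller differences between the groups, were not matched, so their promoters could not be compared. Each of the 3 promoters holds a match to the kB consensus, the DNA motif that NF-kB binds. Each sequence is the 250 bases before the RefSeq gene start, 5′ to 3′ on the strand of the gene, at chr4:74099196-74099445 (minus strand) for CXCL2, chr2:227813592-227813841 (plus strand) for CCL20 and chr19:4229273-4229522 (plus strand) for EBI3. Capitals mark every match, on either strand, to the kB consensus, AP-1 (TGANTCA), C/EBP (TTNNGNAA) and STAT (TTCNNNGAA) motifs and to the TATA box (TATAAA).
CXCL2: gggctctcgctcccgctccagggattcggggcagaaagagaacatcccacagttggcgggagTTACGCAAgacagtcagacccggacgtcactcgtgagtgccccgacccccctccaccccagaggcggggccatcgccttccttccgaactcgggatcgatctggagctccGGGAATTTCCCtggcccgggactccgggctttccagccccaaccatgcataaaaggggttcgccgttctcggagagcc
CCL20: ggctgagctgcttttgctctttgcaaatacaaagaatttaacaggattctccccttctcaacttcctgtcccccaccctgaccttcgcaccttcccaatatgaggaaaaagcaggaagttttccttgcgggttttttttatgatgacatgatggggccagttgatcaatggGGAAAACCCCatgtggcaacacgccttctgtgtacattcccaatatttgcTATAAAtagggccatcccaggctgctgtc
EBI3: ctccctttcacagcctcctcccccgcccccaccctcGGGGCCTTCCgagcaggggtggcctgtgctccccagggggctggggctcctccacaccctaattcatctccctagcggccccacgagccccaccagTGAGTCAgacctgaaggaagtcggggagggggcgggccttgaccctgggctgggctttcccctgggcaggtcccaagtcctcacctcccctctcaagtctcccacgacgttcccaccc
In CXCL2 the capitals nearest the start, 78 to 68 bases before it, are 2 overlapping kB matches, GGGAATTTCC and GGAATTTCCC, and the others are a C/EBP match, TTACGCAA, 188 to 181 bases before the start. CCL20 has the kB match GGAAAACCCC, 79 to 70 bases before its start, and a TATA match 29 to 24 bases before it. EBI3 has the kB match GGGGCCTTCC, 214 to 205 bases before its start, and an AP-1 match, TGAGTCA, 118 to 112 bases before it. No match to the STAT motif was found in the 3 windows. Among 35114 promoter windows of the same length, 9.96% held a kB match, 33.2% a C/EBP match, 10.7% a TATA match, 6.57% an AP-1 match and 6.57% a STAT match. A match is a run of letters and does not show that a factor binds there. The GENCODE annotation starts CXCL2 and EBI3 98 and 25 bases further upstream, inside these windows, and CCL20 8103 bases further upstream.

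All 5 genes were lower in CYGB-OE, and in each the CYGB-OE libraries lay below every WT library. Of the 2468 features tested, 70.9% were called lower (edgeR quasi-likelihood test, Benjamini-Hochberg adjusted over the table, threshold 0.05), and in 70.1% of the 2778 features every CYGB-OE library lay below every WT library. Only 6 of the tested features were not called in either direction, so adjustment over the table hardly changed the larger p-values. For CXCL2 the edgeR p of 0.0413 became 0.0415. Nothing about the 5 genes as a group is read from their count, since they were chosen with these results known. An exact permutation test of 3 against 3 libraries cannot give a two-sided p under 0.10, and it gave 0.10 for each gene.

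**Figure D1:**
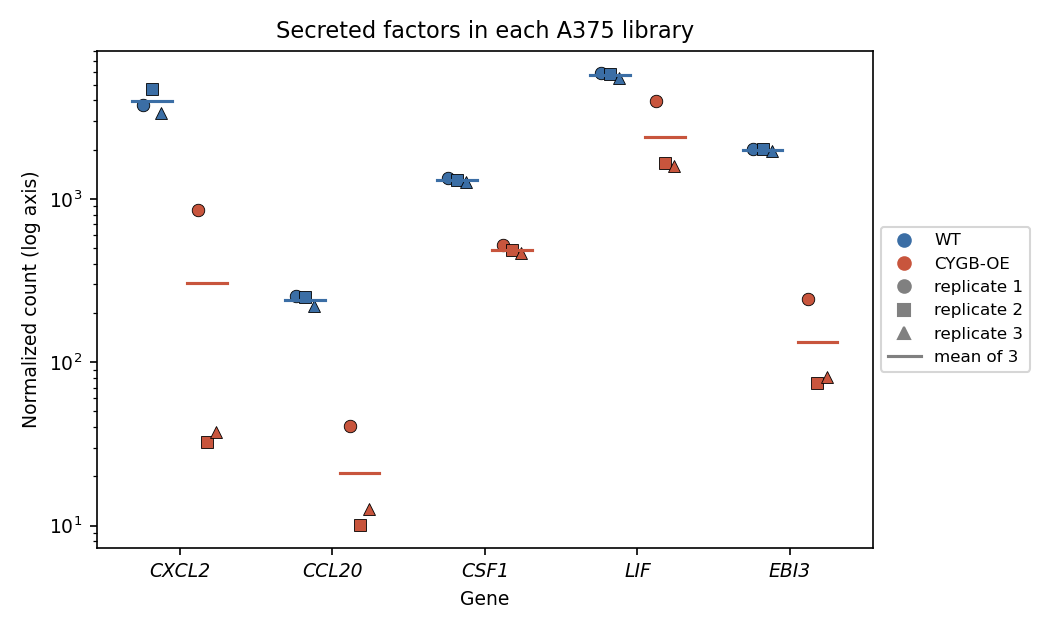
Normalized counts (log axis) of the 5 genes in each library, with WT in blue, CYGB-OE in red, the replicate by the shape of the point and the mean of 3 libraries as a bar. In CXCL2, CCL20, LIF and EBI3, CYGB-OE replicate 1 (circle) lies above replicates 2 and 3, while the 3 CYGB-OE libraries of CSF1 lie together between 464 and 518.

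CXCL2 (ENSG00000081041, GRCh38 chromosome 4, 74097035 to 74099293, minus strand) had the widest spread of the 5. Its normalized counts were 3770, 4706 and 3349 in replicates 1, 2 and 3 of WT, against 849, 32.4 and 37.3 in those of CYGB-OE. Values of the other genes follow the same order. The WT libraries were all high, CYGB-OE replicates 2 and 3 were both low, and CYGB-OE replicate 1 lay between, 24.4 times the mean of the other two. On the log2(normalized count + 1) scale that difference was 4.57, the highest of the 2468 tested features. That rank depends on the added constant of 1. As a plain ratio, ANO9 stood higher, at 32.9, from 14, 0 and 1 counts in CYGB-OE. CXCL2 had 796, 29 and 41 counts there. The log2 fold change was -3.69 (SE 1.37, 95% interval -7.17 to -0.21; edgeR adjusted p = 0.0415), and the lowest WT library was still 3.94 times the highest CYGB-OE library. Leaving out CYGB-OE replicate 1 moved it to -6.81 (edgeR adjusted p = 2.01e-05); in that fit 70.8% of the tested features were called lower. Leaving out any 1 of the WT libraries, or CYGB-OE replicate 3, ended the call (edgeR adjusted p = 0.0551 to 0.0723). It also ended when adjusted over all 58780 annotated genes (edgeR adjusted p = 0.988). CXCL2 has close relatives in CXCL1 and CXCL3: of 1546 different 50-base windows in its annotated transcripts, 12.5% also occur in transcripts of those 2 genes. The sources used here do not say how reads that fit more than 1 gene were counted, so the CXCL2 count is uncertain to that extent.

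CCL20 (ENSG00000115009, chromosome 2, 227805739 to 227817564, plus strand) was the least abundant of the 5. It had 255, 249 and 221 normalized counts in WT and 40.5, 10.1 and 12.7 in CYGB-OE, the latter from 38, 9 and 14 counts. The groups did not come near each other, with the lowest WT library 5.45 times the highest CYGB-OE library. The log2 fold change was -3.52 (SE 0.43; edgeR adjusted p = 9.93e-05), and -4.38 without CYGB-OE replicate 1, which held 3.56 times the mean of replicates 2 and 3.

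EBI3 (ENSG00000105246, chromosome 19, 4229498 to 4237531, plus strand) had the clearest separation. Its normalized counts were 2020, 2009 and 1962 in WT, a coefficient of variation of 1.55%, and 245, 74.8 and 80.9 in CYGB-OE. The lowest WT library was 8.0 times the highest CYGB-OE library, the largest such gap of the 5 genes. The mean fell 14.9-fold with all libraries and 25.7-fold without CYGB-OE replicate 1 (edgeR adjusted p = 0.00023 and 8.5e-18). The log2 fold change of EBI3 was below that of all but 2.23% of the tested features, against 2.80% for CXCL2 and 3.73% for CCL20. The partner subunits of EBI3, IL27 and IL12A, were not in the table.

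CSF1 (ENSG00000184371, chromosome 1, 109910242 to 109930992, plus strand) showed a smaller and even difference. It had 1347, 1299 and 1268 normalized counts in WT and 518, 485 and 464 in CYGB-OE, so the spread within each group was small and no library stood apart. The mean fell 2.67-fold with all libraries and 2.75-fold without CYGB-OE replicate 1. Its standard error of 0.10 on the log2 scale was the smallest of the 5 (95% interval of the log2 fold change -1.65 to -1.18; edgeR adjusted p = 7.06e-06).

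LIF (ENSG00000128342, chromosome 22, 30240447 to 30246851, minus strand) had the smallest fold of the 5 and the most counts. It had 5857, 5830 and 5465 normalized counts in WT and 3949, 1648 and 1583 in CYGB-OE. Here CYGB-OE replicate 1 lay closer to WT than to its own group, and the lowest WT library was only 1.38 times that library. The log2 fold change was -1.26 (SE 0.36, 95% interval -2.11 to -0.40; edgeR adjusted p = 0.0110), near the median of all tested features, -1.29. It was -1.82 without CYGB-OE replicate 1 (edgeR adjusted p = 1.83e-14), and the call was lost when adjusted over all annotated genes (edgeR adjusted p = 0.263). The annotation places LIF-AS1 and AC004264.1 on the opposite strand, sharing 92 and 175 exon bases with LIF, and with no strand setting given their reads cannot be told apart from those of LIF there.

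The level set between the groups decides how 3 of these results read. With TMM over the whole table, which raised the tested log2 fold changes by a median of 1.2, the log2 fold changes were -2.70 for EBI3 and -2.32 for CCL20, both still called (edgeR adjusted p = 0.00153 and 0.00174). They were -2.49 for CXCL2, -0.22 for CSF1 and -0.05 for LIF, none of them called (edgeR adjusted p = 0.175, 0.125 and 0.917). Under it 19.4% of the tested features were called lower. The 5 genes stayed below 0 under every scaling run.

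**Figure D2:**
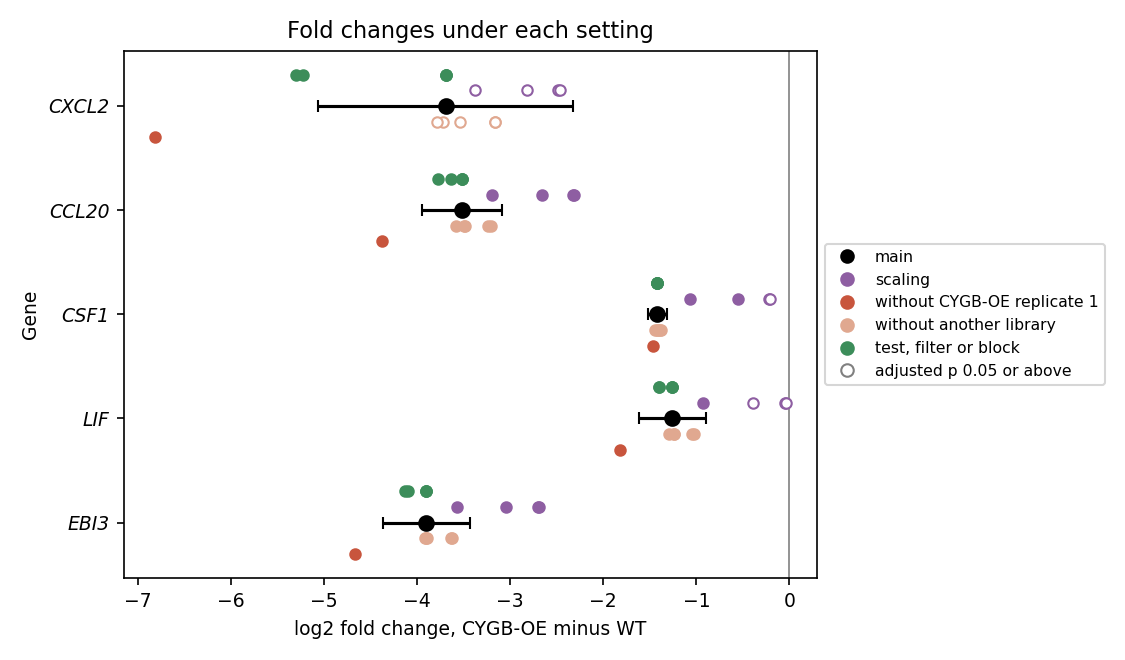
The log2 fold change of each gene (horizontal axis, CYGB-OE minus WT) under the main setting (black, bar = 1 SE) and under other scalings, tests, filters, the replicate block and each left-out library; open points have an adjusted p of 0.05 or above. CXCL2 ranges from -6.81 to -2.46, while CSF1 moves only with the scaling.

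Ratios between the genes inside a library do not depend on the scaling between libraries. The count of EBI3 was 1.5, 1.55 and 1.55 times that of CSF1 in WT and 0.473, 0.154 and 0.174 times in CYGB-OE. For CXCL2 the ratio to CSF1 was 2.80, 3.62 and 2.64 in WT and 1.64, 0.0668 and 0.0802 in CYGB-OE. For CCL20 it was 0.189, 0.192 and 0.174 in WT and 0.0782, 0.0207 and 0.0274 in CYGB-OE. These 3 genes were thus lower relative to CSF1 in every CYGB-OE library. LIF behaved otherwise: its ratio to CSF1 was 4.35, 4.49 and 4.31 in WT, 7.62 in CYGB-OE replicate 1, and 3.40 and 3.41 in replicates 2 and 3, so that the CYGB-OE libraries lay on both sides of WT.

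The order of the 5 genes by level also differed between the groups. Levels here are normalized counts per kilobase of merged exon in GENCODE release 29. In all 3 WT libraries the order was CXCL2 (2628 ± 463, SD, n = 3), EBI3 (1555 ± 24.1), LIF (1440 ± 55.1), CSF1 (241 ± 7.36) and CCL20 (152 ± 11.4), and no neighbours overlapped. EBI3 and LIF were the closest pair, with EBI3 at 1528 to 1573 and LIF at 1377 to 1476. In CYGB-OE replicates 2 and 3 the order was LIF (415 and 399), CSF1 (89.5 and 85.7), EBI3 (58.3 and 63.0), CXCL2 (21.6 and 24.8) and CCL20 (6.31 and 7.98). CYGB-OE replicate 1 had LIF first (995), then CXCL2 (566), EBI3 (191), CSF1 (95.7) and CCL20 (25.4). LIF made up 22.4% to 25.0% of the summed level of the 5 genes in WT and 53.1%, 70.3% and 68.7% in CYGB-OE replicates 1 to 3, while CXCL2 made up 40.5% to 47.8% in WT and 30.2%, 3.65% and 4.28% in CYGB-OE.

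CYGB-OE replicate 1 differed from replicates 2 and 3 to an unequal degree in the 5 genes. On a scale where the mean of replicates 2 and 3 is 0% and the WT mean is 100%, replicate 1 lay at 56.9% for LIF, 20.8% for CXCL2, 12.7% for CCL20, 8.73% for EBI3 and 5.29% for CSF1. The median over the 1749 features called lower was -3.21%, so these features were not in general nearer to WT in that library. Of those features, 9.49% were at least 2-fold higher in replicate 1 than in replicates 2 and 3 (taken on normalized count + 1), and CXCL2, CCL20, EBI3 and LIF were among them, with log2 ratios of 4.57, 1.75, 1.64 and 1.29. CSF1, at 0.13, was not. CYGB itself had 24020, 23160 and 23870 normalized counts in CYGB-OE replicates 1 to 3.

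**Figure D3:**
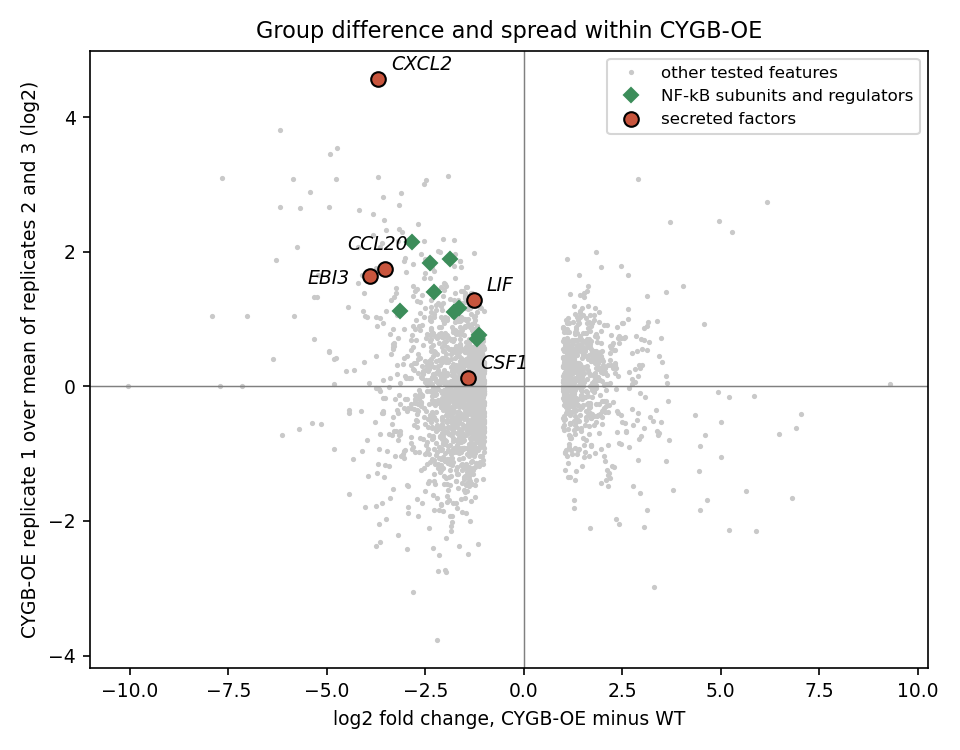
Each tested feature by its log2 fold change between the groups (horizontal) and by the log2 ratio of CYGB-OE replicate 1 to the mean of replicates 2 and 3, on normalized count + 1 (vertical). The 5 genes are red, 9 NF-kB subunits and regulators are green diamonds, all of them above 0, and CXCL2 is the highest point.

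The genes most like each of the 5 were sought by the root-mean-square difference of log2(normalized count + 1) over the 6 libraries, with each gene set to 0 at its WT mean, among the 2610 other named genes of the table. For CSF1 they were DLG4, FAM20C and PCDH15 (differences of 0.04, 0.06 and 0.06). For LIF they were CD83, INAVA and KYNU (0.07, 0.09 and 0.10). CD83, a surface protein of mature dendritic cells, had 664, 699 and 677 normalized counts in WT and 472, 178 and 197 in CYGB-OE, so CYGB-OE replicate 1 lay at 57.7% of the way to WT, beside 56.9% for LIF. For EBI3 they were SOD2, TCIM and PEX5L (0.21, 0.24 and 0.25), of which SOD2, the mitochondrial superoxide dismutase, had 20540 to 22610 normalized counts in WT and 2097, 944 and 1111 in CYGB-OE. For CCL20 they were UPK1A-AS1, ELF3-AS1 and BDKRB2 (0.23, 0.24 and 0.24), each with at most 94.1 normalized counts in any WT library. In CYGB-OE, PEX5L had 2, 0 and 0 counts, ELF3-AS1 had 3, 0 and 1, and BDKRB2 had 3, 0 and 0. At such counts the likeness depends on the added constant of 1. No gene was as close to CXCL2: the nearest were NEURL3, ANO9 and GPR37L1 at 0.38, 0.53 and 0.57, and all 3 had at most 1 count in CYGB-OE replicates 2 and 3.

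The wider signalling families of the 5 genes were examined with 11 lists that hold 208 genes in all, the 5 included. Of these, 33 were in the table and 32 were tested; 31 were lower and 1 was higher, a share of 96.9% lower against 70.9% of all tested features, with a median log2 fold change of -2.10 against -1.29. Adjusted over all annotated genes, 24 of the 31 lower calls held, beside 1340 of the 1749 lower calls of the whole table. Those 1340 are 54.3% of all tested features. The lists were chosen with earlier results of these libraries known, so nothing particular to them is read from these shares. The same holds for the counts of each list below, since 70.9% of all tested features were called lower. Genes of the lists that the table does not hold were not analysed here.

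Among chemokine ligands, 3 of 18 CXC and CX3C genes and 1 of 26 CC and C genes were in the table, and all 4 fell. Beside CXCL2 and CCL20 these were CX3CL1, a membrane-bound chemokine that can be shed, and CXCL16, another membrane-bound chemokine. CX3CL1 had 597, 673 and 612 normalized counts in WT and 116, 96.0 and 79.1 in CYGB-OE (log2 fold change -2.69; edgeR adjusted p = 4.61e-06), and no CYGB-OE library stood apart. CXCL16 had 810 to 816 in WT and 320 to 353 in CYGB-OE (log2 fold change -1.28, and -0.08 without a call under TMM over the table). Of 23 chemokine receptors, CCR10 alone was in the table, and fell from 111 ± 12.5 to 37.4 ± 8.24 normalized counts (SD, n = 3). The annotation places exons of CNTNAP1 on the opposite strand over CCR10, so its count is uncertain. CXCR2 and CCR6, the receptors of CXCL2 and CCL20, were not in the table.

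Of 10 colony-stimulating factors and receptors, CSF1 and CSF3 were in the table, and both fell. CSF3, the granulocyte factor, was rare: it had 44 counts over the WT libraries and 3 over the CYGB-OE libraries, all 3 in replicate 1. WT exceeded CYGB-OE 13.8-fold (95% exact interval 4.43 to 69.5, counting error only). CSF1R, the receptor of CSF1, was not in the table.

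Of 13 listed ligands of the IL-6 and IL-12 families, the table held 4. One of them, IL6, was too rare to test. LIF and EBI3 fell and 1 rose. CNTF, the ciliary neurotrophic factor, rose, with 8.80, 30.0 and 25.5 normalized counts in WT and 109, 87.1 and 63.6 in CYGB-OE (log2 fold change 1.97; edgeR adjusted p = 0.00141). Of the 1894 exon bases of CNTF, 732 are shared with the read-through gene ZFP91-CNTF on the same strand, which makes its count uncertain. IL6 had 11, 12 and 13 counts in WT and 1, 1 and 3 in CYGB-OE and did not pass the filter on low counts. None of the 11 receptor chains of these families, LIFR and IL6ST among them, was in the table.

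The table held 3 of 21 JAK, STAT and SOCS genes, and all 3 fell. The kinase JAK3 had 169 to 198 normalized counts in WT and 27.7, 58.1 and 60.9 in CYGB-OE, and so was lowest in CYGB-OE replicate 1, the reverse of LIF. STAT4 had a log2 fold change of -2.37, and STAT5A one of -1.15, or 0.05 with TMM over the table. STAT3, through which LIF signals, and SOCS3, its feedback inhibitor, were not in the table.

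From the interleukin 1 family and its receptors, 6 of 18 listed genes were in the table and all 6 fell, beside 70.9% of all tested features. They were the cytokine genes IL1A, IL1B and IL37 and the receptor genes IL1R1, IL1RL1 and IL18R1. IL1A had 8462 to 8960 normalized counts in WT and 390, 55.8 and 67.3 in CYGB-OE, and IL1B 1226 to 1343 in WT and 17.1, 2.23 and 0 in CYGB-OE. In both, CYGB-OE replicate 1 was the highest of its group, as in CXCL2, CCL20, LIF and EBI3, but it lay at only 3.79% and 1.24% of the way to WT. Of 24 other interleukins, IL24 and TSLP were in the table and fell, and here CYGB-OE replicate 1 was the lowest library: IL24 had 731 to 809 normalized counts in WT and 16.0, 83.8 and 83.6 in CYGB-OE. Of 17 TNF family ligands, TNFSF12 and TNFSF14 were in the table and fell (edgeR adjusted p = 0.00301 and 0.0483). Of the 1879 exon bases of TNFSF12, 553 are shared with the gene TNFSF12-TNFSF13 on the same strand, which makes its count uncertain. TNFSF14 had 46.8 to 57.7 normalized counts in WT and 36.3, 1.12 and 5.45 in CYGB-OE, and its call was lost when any library but CYGB-OE replicate 1 was left out.

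**Figure D4:**
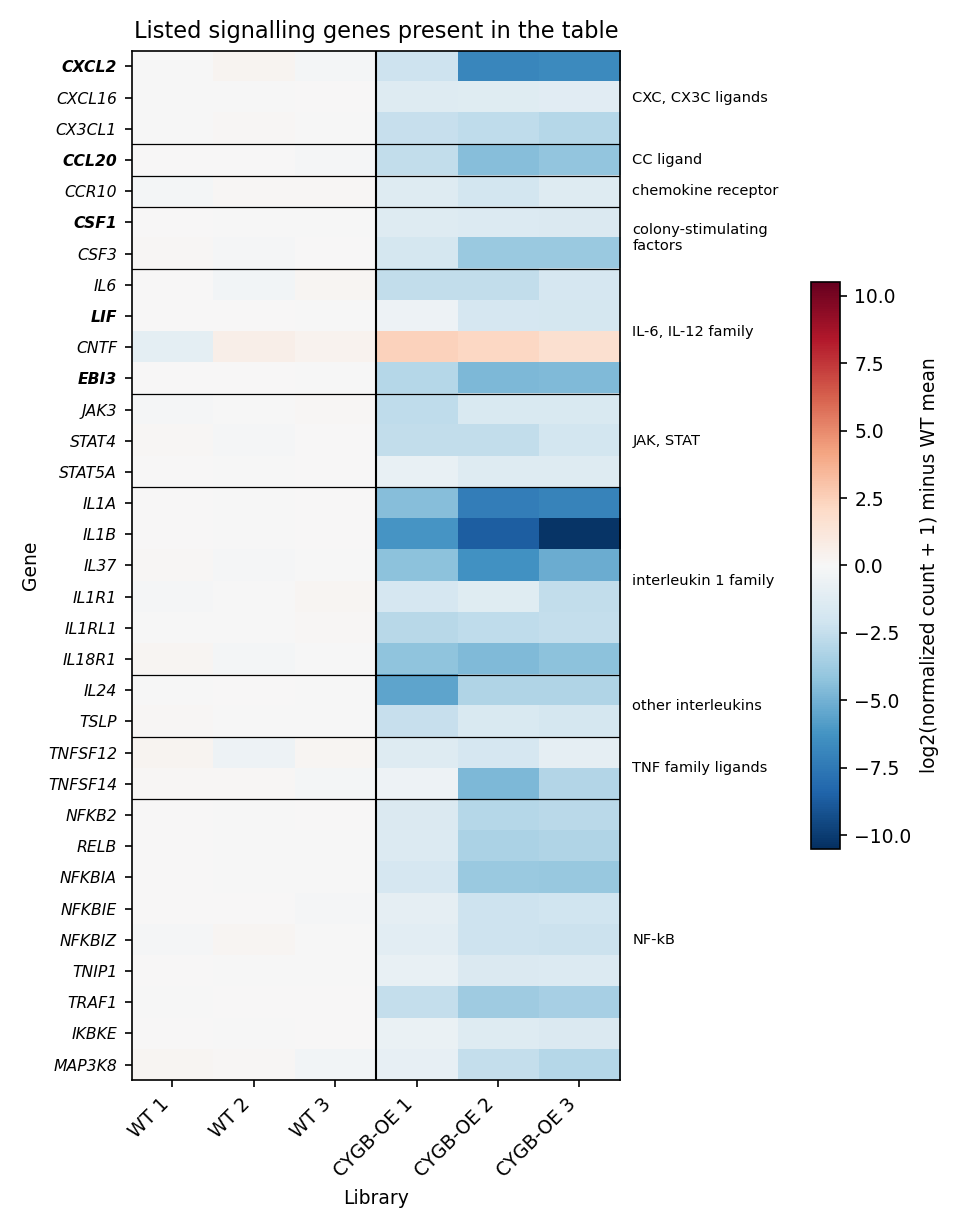
The 33 listed genes in the table (rows, by list; the 5 secreted factors in bold) in each library (columns), coloured by log2(normalized count + 1) minus the WT mean of the gene. All rows but CNTF are below the WT mean in CYGB-OE. Replicate 1 is the highest CYGB-OE library in 23 of the 33 rows. These include CXCL2, CCL20, LIF, EBI3, IL1A, IL1B, TNFSF14 and the NF-kB genes. It is the lowest in others, such as IL24, JAK3 and TSLP.

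Of 27 NF-kB subunits and regulators, 9 were in the table and all 9 fell, with a median log2 fold change of -1.87 (-2.85 without CYGB-OE replicate 1). Of all tested features, 70.9% were called lower. In all 9, CYGB-OE replicate 1 was the highest CYGB-OE library, against 34.5% of all features called lower. The subunit gene NFKB2 had 16720 to 17810 normalized counts in WT and 6144, 2181 and 2480 in CYGB-OE, and RELB, which pairs with its product, had 3557 to 3709 in WT and 1347, 363 and 394 in CYGB-OE. Replicate 1 lay at 25.4% of the way to WT for NFKB2 and 29.9% for RELB. NFKBIA, the gene of the inhibitor IkB-alpha, lay at 24.1%. The list varied: NFKBIZ lay at 31.1%, TNIP1 at 35.5%, NFKBIE at 36.5%, IKBKE at 40.2% and MAP3K8 at 47.3%. TRAF1 lay lowest of the 9, below the 20.8% of CXCL2. The 5 secreted factors themselves ran from 5.29% for CSF1 to 56.9% for LIF, so no match with any of them is read from these values. Whether these levels bear on the 5 secreted factors was not tested. Under TMM over the table, 1 of the 9 was called lower, 7 stayed below 0, and TNIP1 and IKBKE turned to 0.01 and 0.06. The RefSeq promoter table held 7 of the 9, of which 5 had a kB match in the 250 bases before the start (MAP3K8, NFKB2, NFKBIA, NFKBIZ and TNIP1). A gene was counted if any of its promoter entries held a match. The 9.96% given above is a share of all promoter windows, so the list counts cannot be set against it directly. The same count was 1 of 6 for the interleukin 1 family and receptors, with a median log2 fold change of -4.92. It was 2 of 3 each for the IL-6 and IL-12 ligands and the JAK, STAT and SOCS genes, 1 of 2 for other interleukins, and 1 of 1 each for the TNF, CXC and CC ligands. The CXC and CC genes counted here are CXCL2 and CCL20 themselves, and the IL-6 and IL-12 ligands counted are EBI3 and IL6. These counts therefore repeat the promoters shown above, and nothing is read from them.

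Markers of the labelled cell type and of others moved beside these genes. Of the 4 melanocyte and melanoma markers in the table, DCT was too rare to test and TYRP1, S100A1 and EDNRB fell, with log2 fold changes of -2.53, -1.11 and -1.50. Under TMM over the table none of these 3 was called, and they were at -1.35, 0.09 and -0.30. The summed level of the 4 was 5918 to 6518 normalized counts in WT and 2506 to 2906 in CYGB-OE. Markers of other cell types moved in both directions. The endothelial markers KDR and TIE1, 2 of 7 on that list, fell, with a summed level of 166 to 191 normalized counts in WT and 16.8 to 34.1 in CYGB-OE. LYZ of the macrophage list rose from 43.6 to 55.3 in WT to 223 to 341 in CYGB-OE. Of its 1764 exon bases, 599 are shared with AC020656.1 on the opposite strand, so its count is uncertain. COL1A2 of the fibroblast list and KRT14 of the keratinocyte list, each the only 1 of 7 in the table, also rose, COL1A2 from 0 to 3.16 in WT to 36.3 to 173 in CYGB-OE and KRT14 from 13.8 to 20.6 to 51.8 to 68.1. Their part in the results above was not tested. In these bulk libraries, fewer cells that make a factor and less RNA of it per cell cannot be told apart.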

How the data were processed

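Poly(A)-selected RNA of 6 A375 libraries (3 WT, 3 CYGB-OE) was sequenced. The table deposited by the authors holds raw counts, 1 column per library, per the file headers. The submitters' processing notes name Trimmomatic 0.36, STAR 2.5.2b, featureCounts, Subread 1.5.2 and GRCh38. No source used here gives the annotation, the strand setting or the rule behind the 2778 listed features. The 163 unnamed loci held 1.25% to 1.64% of a library's counts.

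Counts were tested with edgeR 4.0.16 (R 4.3.3; quasi-likelihood F test, two-sided, robust, filterByExpr with a minimum count of 10 on column totals, Benjamini-Hochberg adjustment over the table, threshold 0.05). TMM factors came from each group alone; the groups were then aligned by centring the empty band on a log2 ratio of 0, and fits with a library left out kept these factors. Standard errors follow from the F statistic and the log2 fold change. DESeq2 1.42.0, limma-voom (limma 3.58.1), other scalings and filters, a replicate block and each left-out library were alternatives. The tests were also run on simulated counts with known library sizes, most features unchanged and no library standing apart. Those settings differ from this table, so that run does not show how the tests perform on these data. Coordinates and exon lengths are from GENCODE 29, promoters from RefSeq. The 5 genes, the gene lists and the scaling were chosen with earlier results of these data known. Genes named are the 5, any listed gene in the table, and the 3 most alike genes of each; 1 gene of the lists is not reported here and is left out of the list counts.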

Additional observations from a re-analysis of the deposited data

How the results depend on the processing

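All 5 genes kept a log2 fold change below 0 under all 16 alternatives, and EBI3 and CCL20 also kept their calls. Only the other scalings reset the level between the groups, and the adjustment over all annotated genes cannot change a fold change. CSF1 lost its call under TMM (-0.22) and DESeq2 size factors (-0.21). LIF lost it under TMM (-0.05), DESeq2 size factors (-0.04), upper-quartile factors (-0.39) and adjustment over all annotated genes (-1.26). CXCL2 lost it under TMM (-2.49), DESeq2 size factors (-2.46), upper-quartile factors (-2.82), column totals (-3.38), no filter on low counts (-3.69, adjusted p = 0.0537) and adjustment over all annotated genes (-3.69). With 1 library left out, CXCL2 ranged from -6.81 to -3.16, with edgeR adjusted p = 2.01e-05 to 0.0723. The cause was not tested.

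Features called lower numbered 1749 in the main setting, 480 under TMM, 476 under DESeq2 size factors and 910 under upper-quartile factors. A minimum count of 50, which tests fewer genes, gave 444 higher and 1162 lower against 713 and 1749. Under both TMM and DESeq2 size factors, the counts of lower genes were 1 for CXC and CX3C chemokine ligands, 0 for chemokine receptors, 1 for colony-stimulating factors and receptors, 1 for IL-6 and IL-12 family ligands, 1 for JAK, STAT and SOCS genes, 0 for TNF family ligands and 1 for NF-kB genes. IL-6 and IL-12 family ligands numbered 1 when adjusted over all annotated genes. Upper-quartile factors gave 1 for IL-6 and IL-12 family ligands, 0 for TNF family ligands and 5 for NF-kB genes. TNF family ligands numbered 1 under column totals, 0 with a minimum count of 50, 0 when adjusted over all annotated genes and 1 to 2 with 1 library left out. Colony-stimulating factors and receptors numbered 1 with a minimum count of 50.

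Deviations of libraries with the same replicate number correlated at -0.013, -0.069 and 0.000. With 3 libraries a group and CYGB-OE replicate 1 standing apart, these values cannot show whether shared replicate numbers mark paired libraries. With the replicate block, log2 fold changes were -5.23 for CXCL2, -3.64 for CCL20, -1.42 for CSF1, -1.40 for LIF and -4.10 for EBI3, all still called, with 712 features higher and 1750 lower. The depth of the libraries is not known from a table of selected features.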
